A study of Mus musculus with 14 samples.

Results

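DNA methylation in mammals is written, copied and removed by a small set of enzymes, and 8 of them were followed here: Dnmt1, Dnmt3a, Dnmt3b, Dnmt3l, Uhrf1, Tet1, Tet2 and Tet3. They were chosen by name as one enzyme system out of 21887 mouse protein-coding genes. Dnmt3b was also chosen for its large H3K9me2 difference, so that difference is described here and supports nothing. For each gene, every listed region that overlapped the gene body or the 10 kb on either side was taken. This gave 204 of the 1186054 regions listed for the whole genome: 110 for G9a, 22 for H3K9me2 and 72 for H3K27me3.

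Dnmt1 is the maintenance methyltransferase, which copies methylated CG sites onto the new strand after replication, and Uhrf1 recognises hemimethylated DNA and brings Dnmt1 to it. Dnmt3a and Dnmt3b methylate sites that carried no mark before. Dnmt3l resembles them but is catalytically inactive, and it stimulates de novo methylation in germ cells. Tet1, Tet2 and Tet3 oxidise 5-methylcytosine, the first step of active demethylation. G9a, the product of Ehmt2, places H3K9me2, a repressive histone mark, and Polycomb complexes place H3K27me3, another repressive mark. The data bear on the histone marks and on G9a at these genes, not on their transcripts and not on DNA methylation itself.

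Cells enriched for cardiomyocytes were taken from C57BL/6J mice and their chromatin studied either 1 week after transverse aortic constriction (TAC), a surgical narrowing that loads the left ventricle with pressure, or without treatment (labelled sham). No allele or transgene is named, and age, sex and any pooling of animals are not given in the labels. Each of 3 antibodies was used on 2 biological replicates per condition, which with 1 input per condition makes 14 libraries. The authors' deposited table for each antibody holds the regions that differed, each with 4 whole numbers, here called library 1 and library 2 of a first and of a second pair. The tables do not say which pair is TAC, so every direction below is second pair against first pair. The same order is assumed in the 3 tables. For log2 differences, 1 was added to the mean of each pair, and the second was divided by the first. In chromatin from a mixed population, a change in the mark and a change in the share of cells that carry it cannot be told apart.

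The tables hold differing regions only, with a deposited p of at most 0.01 and a mean over the 4 libraries of at least 105 per kb. A gene without a region may therefore carry a steady mark or none. The labelled cell type cannot be checked from levels in such tables. Of 6 cardiomyocyte markers, H3K27me3 regions higher in the second pair lay at 1 (Myh6) and regions higher in the first pair at 2 (Tnnt2, Tnni3). All 4 endothelial and all 4 fibroblast markers and 3 of 4 leukocyte markers had such regions in both directions. Of all protein-coding genes 69.7% had one for the second pair and 79.9% for the first. For G9a, the second-pair and first-pair counts were 5 and 4 of the 6 cardiomyocyte markers. They were 4 and 4 of the 4 endothelial, 3 and 4 of the 4 fibroblast, and 3 and 4 of the 4 leukocyte markers. For H3K9me2, in the same order of cell types, they were 2 and 1, 3 and 4, 3 and 4, and 2 and 2. One G9a library stood apart. Library 1 of the second pair was listed at 0 in 9.34% of all G9a regions, against 0.545% for the other library of that pair and 0.163% to 1.40% for the first pair. Its part in the G9a results below was not tested beyond leaving it out.

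Of the promoters of the 8 genes, 4 are shown because they differ in what covered their transcription start: that of Dnmt3b lay inside a G9a region and an H3K9me2 region, those of Dnmt3l and Tet1 inside G9a and H3K27me3 regions, and that of Tet2 inside none. Each sequence runs from 250 bases before to 50 bases after the start, 5′ to 3′ on the gene's strand, from RefSeq for build GRCm38.p6, in which all 8 genes were matched with 15 starts. Capitals mark CG, the dinucleotide that these enzymes act on, read on the one strand since it is its own reverse complement. The Dnmt3b promoter (chr2:153649199-153649498, plus strand) held 30 CG, and 15.4% of 21263 protein-coding promoters of the same length held as many. The first Dnmt3l promoter (chr10:78042037-78042336, plus strand) held 6, and 67.7% held as many. The Tet1 promoter (chr10:62887275-62887574, minus strand) held 17, and 42.7% held as many. The Tet2 promoter (chr3:133544341-133544640, minus strand) held 57, a count reached by 0.179% of promoters.
Dnmt3b: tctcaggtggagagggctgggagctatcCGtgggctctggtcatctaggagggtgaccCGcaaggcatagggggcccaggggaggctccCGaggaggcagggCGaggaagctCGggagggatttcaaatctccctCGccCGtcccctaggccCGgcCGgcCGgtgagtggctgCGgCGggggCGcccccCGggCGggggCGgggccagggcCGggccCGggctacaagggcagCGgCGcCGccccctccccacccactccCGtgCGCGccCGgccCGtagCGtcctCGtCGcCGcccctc
Dnmt3l: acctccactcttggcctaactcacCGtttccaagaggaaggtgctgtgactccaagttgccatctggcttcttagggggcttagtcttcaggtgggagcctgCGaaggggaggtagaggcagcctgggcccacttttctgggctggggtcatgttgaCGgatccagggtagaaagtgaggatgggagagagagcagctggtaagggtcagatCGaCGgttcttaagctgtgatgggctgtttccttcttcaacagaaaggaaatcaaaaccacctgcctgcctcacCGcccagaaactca
Tet1: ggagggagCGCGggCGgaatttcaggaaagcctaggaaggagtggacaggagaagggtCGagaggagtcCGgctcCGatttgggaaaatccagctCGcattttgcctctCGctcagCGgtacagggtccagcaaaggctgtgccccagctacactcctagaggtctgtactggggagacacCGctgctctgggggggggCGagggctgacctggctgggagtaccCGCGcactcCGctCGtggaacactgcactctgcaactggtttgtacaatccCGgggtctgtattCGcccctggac
Tet2: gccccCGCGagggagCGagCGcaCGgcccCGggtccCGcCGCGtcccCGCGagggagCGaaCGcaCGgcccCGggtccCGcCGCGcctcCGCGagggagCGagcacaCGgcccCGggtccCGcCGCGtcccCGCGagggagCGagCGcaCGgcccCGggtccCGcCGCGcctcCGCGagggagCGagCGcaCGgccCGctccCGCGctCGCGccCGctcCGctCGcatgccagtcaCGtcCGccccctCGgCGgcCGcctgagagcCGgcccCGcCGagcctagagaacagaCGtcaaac

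Differing regions were common around genes, so their mere presence says little. In the deposited G9a table, 8 of 8 members had a region higher in the second pair, against 73.2% of all protein-coding genes, and 8 of 8 had one higher in the first pair, against 89.1%. For H3K27me3 both directions were again found at 8 of 8 members, against 69.7% of all genes for the second pair and 79.9% for the first. For H3K9me2, 4 of 8 members (Dnmt3b, Dnmt3l, Tet2 and Tet3) had a region higher in the second pair, against 52.0% of all genes. H3K9me2 regions higher in the first pair lay at 7 of 8 members, all but Dnmt3l, against 64.7%. Of all listed regions, 44.5% for G9a, 44.4% for H3K9me2 and 42.7% for H3K27me3 were higher in the second pair.

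Per 100 kb of window, the members carried fewer H3K9me2 and H3K27me3 regions than protein-coding genes at large. H3K9me2 regions higher in the second pair numbered 1.20 per 100 kb at the members and 3.01 at all genes. Those higher in the first pair numbered 2.11 at the members and 4.10 at all genes. H3K27me3 showed 6.17 at the members and 8.75 at all genes for the second pair, and 4.66 against 9.26 for the first. G9a was close to the genome, with 6.77 against 6.94 for the second pair and 9.78 against 8.56 for the first. Covered length was uneven among the members, with the highest shares at Dnmt3l and Dnmt3b.

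**Figure D1:**
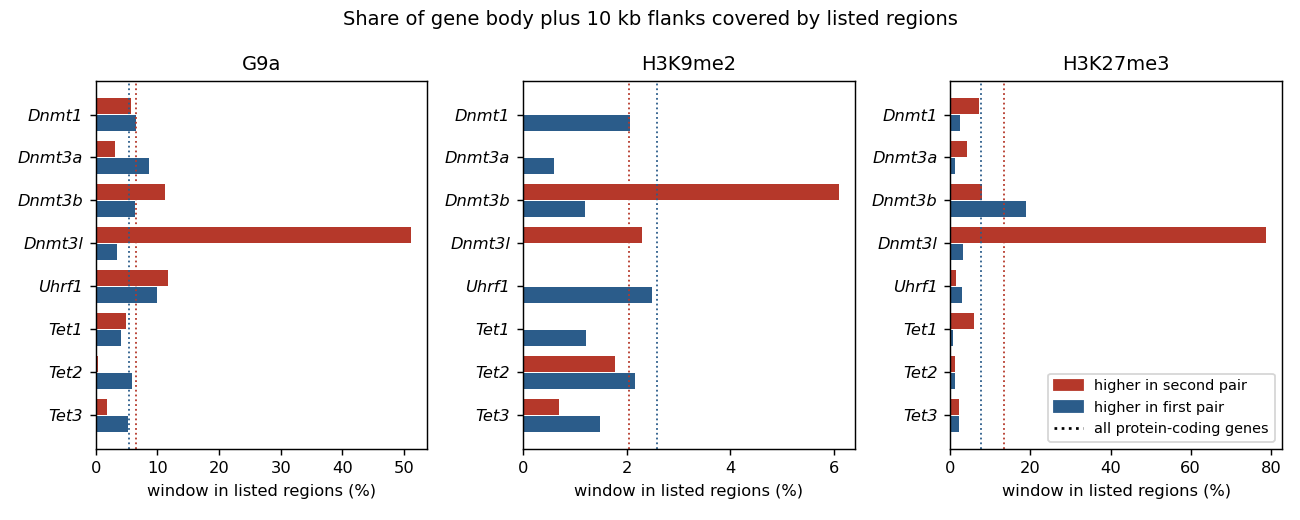
Share of each gene's window (gene body plus 10 kb on each side) inside listed regions, in percent, for the 3 antibodies, with regions higher in the second pair in red above those higher in the first pair in blue and dotted lines for all protein-coding genes. Dnmt3l stands at 51.2% for G9a and 78.8% for H3K27me3 in the second-pair direction, and Dnmt3b at 6.09% for H3K9me2.

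Dnmt1, the maintenance enzyme (chr9:20907206-20959888, minus strand), had differing regions in both directions and none over its 3 annotated starts. For G9a, 4 regions were higher in the second pair (log2 differences of 0.72 to 1.14) and 7 in the first (−1.67 to −0.83). Its strongest G9a region by deposited p lay upstream, at chr9:20960801-20962600, with 430 and 414 in the second pair, against 205 and 305 in the first (log2 difference 0.72). The pairs did not overlap there. H3K27me3 covered the inside of the same interval with 193 and 196 in the second pair, against 146 and 123 in the first (0.53). Of its 11 H3K27me3 regions 8 were higher in the second pair, with log2 differences of 0.53 to 1.07. The other 3 were higher in the first pair, at −2.10 to −0.81, the steepest being chr9:20906501-20906850 with 26 and 4 in the second pair, against 62 and 73 in the first. Both of its H3K9me2 regions were higher in the first pair, the stronger with 101 and 8 in the second pair, against 110 and 187 in the first (−1.43). Eif3g and S1pr2 share the window of Dnmt1, so flank regions cannot be given to one gene.

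Uhrf1, which guides Dnmt1 (chr17:56303337-56323486, plus strand), had 4 G9a regions in the second-pair direction and 5 in the first-pair direction, and the one with the smallest deposited p lay inside the gene. The authors' deposited table lists chr17:56311701-56313650 with 461 and 388 in the second pair, against 183 and 156 in the first (1.32). A neighbouring region at chr17:56310401-56311150 held 139 and 178 in the second pair, against 25 and 71 in the first (1.70). In each of these, the lower second-pair value lay above the higher first-pair value. Further along the gene the direction turned, and regions higher in the first pair followed, such as chr17:56319051-56319950 with 23 and 110 in the second pair, against 134 and 185 in the first (−1.25). For H3K27me3, 1 region was higher in the second pair, 2 were higher in the first, and the pairs were without overlap in 1 of these. Both H3K9me2 regions lay in the flank, and Arrdc5 and Kdm4b share that window.

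Dnmt3a, a de novo enzyme (chr12:3801559-3914443, plus strand), had mostly G9a regions higher in the first pair, 16 of 23. The 7 higher in the second pair, the direction of 44.5% of all G9a regions, had log2 differences of 0.66 to 1.23. Of those higher in the first, the leading one, chr12:3884701-3885800, held 17 and 91 in the second pair, against 329 and 237 in the first (−2.37). Library 1 of the second pair was below the other 3 libraries there, but library 2 was also below both first-pair values. Another, chr12:3864301-3865700, held 0 and 181 in the second pair, against 432 and 154 in the first (−1.68), where the pairs overlap. Its single H3K9me2 region lay in the flank, with 77 and 37 in the second pair, against 174 and 117 in the first (−1.34). H3K27me3 differed most steeply just before the gene, at chr12:3799601-3800250, with 17 and 49 in the second pair, against 118 and 120 in the first (−1.82), where the pairs did not overlap. That was 1 of 2 H3K27me3 regions higher in the first pair. Another 4 were higher in the second, led by chr12:3924051-3926550 past the gene's end, with 561 and 674 in the second pair, against 406 and 266 in the first (0.88).

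Dnmt3b, the other de novo enzyme (chr2:153649411-153687730, plus strand), carried the largest H3K9me2 difference of pair means among the members. The authors' deposited table lists chr2:153646751-153649950, which spans the transcription start and the whole promoter printed above, with 2707 and 2553 in the second pair, against 259 and 482 in the first (2.82). Both second-pair values lay far above both first-pair values, and the deposited p is 0. Among 108717 H3K9me2 regions higher in the second pair, 7 had a p as small, 9 had as large a difference of means, and 29 were as long. By log2 difference alone it was less extreme, since 0.981% of those regions matched or passed it. These ranks describe the value that picked the gene.

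G9a was measured in other libraries and was not named in choosing Dnmt3b, but earlier results of these data were known when the choice was made. The G9a values are therefore described and not used as support. The G9a region over the start, chr2:153646701-153650150, contained the whole H3K9me2 region. It held 2797 and 901 in the second pair, against 399 and 615 in the first (1.86). Both second-pair values lay above both first-pair values, but the size rests on library 1 of the second pair: without it the log2 difference was 0.83, and without library 2 of that pair it was 2.46. Of its 12 G9a regions 6 pointed each way, and those higher in the first pair had log2 differences of −1.58 to −0.86. In the deposited p, 89 of 173035 G9a regions higher in the second pair were as small. The limma fit over all G9a regions gave 1.68 with a standard error of 0.68 and an adjusted p of 0.471.

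H3K27me3 at Dnmt3b went the other way and elsewhere in the gene. No H3K27me3 region lay over its start, the nearest being 3049 bp away. Of its 21 H3K27me3 regions 5 were higher in the second pair, against 42.7% of all H3K27me3 regions. The other 16 were higher in the first pair and covered 18.9% of the window, a share that 8.54% of protein-coding genes reached. Most sat in the gene body, led by chr2:153671601-153672950 with 30 and 89 in the second pair, against 345 and 264 in the first (−2.34). Next in the body, chr2:153685451-153686650 held 161 and 108 in the second pair, against 340 and 251 in the first (−1.13). Exceptions within the body included chr2:153674051-153674750, with 152 and 139 in the second pair, against 74 and 28 in the first (1.49). A G9a region higher in the second pair overlapped it, with 56 and 173 in the second pair, against 65 and 37 in the first (1.15). A further short H3K9me2 region, chr2:153680201-153680550, held 64 and 75 in the second pair, against 14 and 0 in the first (3.14). Both H3K9me2 regions higher in the first pair were as short and lay in the body, at −1.86 and −1.72. No other protein-coding gene lies in the Dnmt3b window.

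Dnmt3l, the inactive cofactor (chr10:78042287-78063622, plus strand), was covered over much of its window by regions higher in the second pair, for G9a and for H3K27me3 at once. Its 13 G9a regions of that direction covered 51.2% of the window, a share that 2.23% of protein-coding genes reached, and in 12 of them both second-pair values exceeded both first-pair values. The leading one, chr10:78047151-78051300, held 1388 and 697 in the second pair, against 265 and 430 in the first (1.58). At the first start, chr10:78040701-78043600 held 1066 and 624 in the second pair, against 265 and 289 in the first (1.61). Summed over the 13 regions, the second pair had 5770 and 4007 and the first pair 1537 and 2630.

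The H3K27me3 difference at Dnmt3l was wide and shallow. The 12 regions higher in the second pair covered 78.8% of the window, a share reached by 2.16% of genes, with log2 differences of 0.28 to 1.27. Over the first start, chr10:78039901-78043800 held 2043 and 1776 in the second pair, against 1372 and 1307 in the first (0.51). The steepest, chr10:78045901-78047400, held 400 and 273 in the second pair, against 166 and 112 in the first (1.27). Summed over the 12 regions, the second pair had 14040 and 12168 and the first pair 8214 and 8984. H3K9me2 had a single region just before the first start, with 200 and 133 in the second pair, against 53 and 140 in the first (0.78), where the pairs overlap. The 2 G9a and 2 H3K27me3 regions higher in the first pair were shallow, from −0.72 to −0.38 and from −0.66 to −0.53. The upstream regions and those over the first start also overlap the gene body of Aire, and the farthest downstream ones that of Icosl. They cannot be given to Dnmt3l alone.

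**Figure D2:**
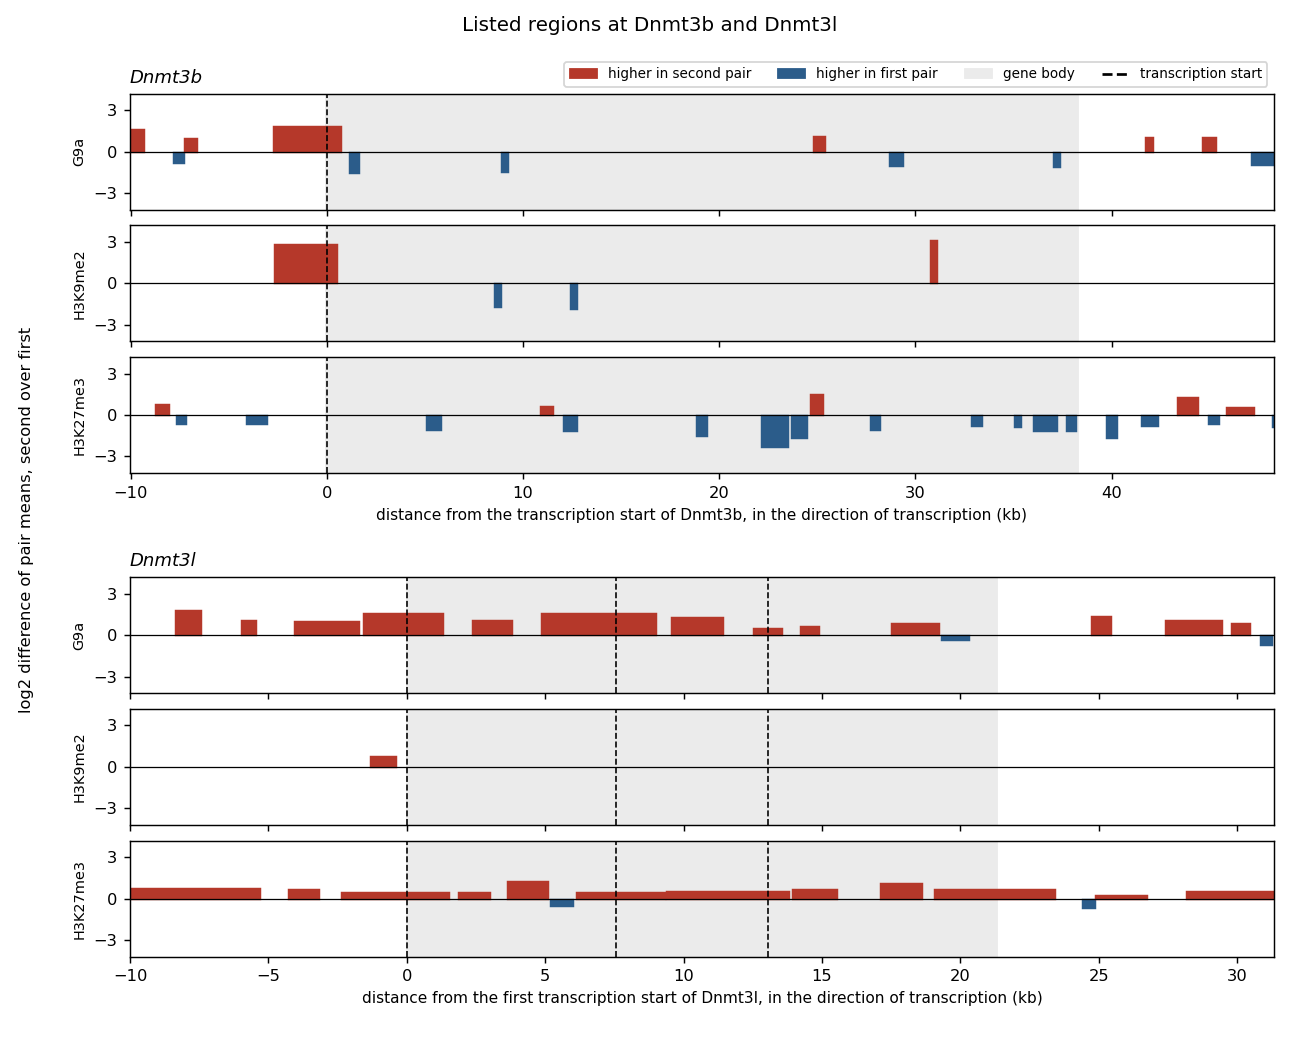
Listed regions at Dnmt3b and Dnmt3l drawn to scale by distance from the transcription start in kb, with bar height the log2 difference between pairs (second over first), red where the second pair was higher, blue where the first was, grey for the gene body and dashed lines for starts. At Dnmt3b tall red G9a (1.86) and H3K9me2 (2.82) bars cover the start while most H3K27me3 bars in the body are blue, and at Dnmt3l red G9a and H3K27me3 bars run along the gene.

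Tet1 (chr10:62804570-62887469, minus strand) was the Tet gene with differing regions over its start. The authors' deposited G9a table lists chr10:62887201-62888150 there, with 105 and 249 in the second pair, against 61 and 71 in the first (1.41). H3K27me3 overlapped the start with chr10:62886151-62887400, whose values were 241 and 462 in the second pair, against 230 and 272 in the first (0.48), where the pairs overlap. Just upstream the H3K27me3 direction turned: chr10:62887451-62888050 held 63 and 42 in the second pair, against 91 and 135 in the first (−1.09). For G9a, 7 regions were higher in each direction. Inside the gene the leading one higher in the second pair, chr10:62877601-62878900, held 266 and 268 in the second pair, against 78 and 79 in the first (1.75). The leading one higher in the first pair, chr10:62874001-62874750, held 6 and 80 in the second pair, against 163 and 103 in the first (−1.61), also without overlap. H3K27me3 led at chr10:62884501-62885550, with 261 and 290 in the second pair, against 77 and 111 in the first (1.54). Both H3K9me2 regions were higher in the first pair and lay deep in the gene body, the stronger with 74 and 7 in the second pair, against 79 and 115 in the first (−1.24).

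Tet2 (chr3:133463677-133545136, minus strand) had 1 of 13 G9a regions higher in the second pair, against 44.5% of all G9a regions. The other 12 were higher in the first pair, most of them in the gene body, with none over its CG-rich start. The leading one, chr3:133487651-133488450, held 0 and 30 in the second pair, against 155 and 201 in the first (−3.48). Library 1 of the second pair was at 0 in others too, among them chr3:133535901-133536550 with 0 and 71 in the second pair, against 128 and 126 in the first (−1.81). H3K9me2 was split, with 4 regions in the first-pair direction and 3 in the second-pair direction, all of them without overlap between pairs. The strongest of each kind by deposited p were chr3:133482301-133483100, with 2 and 44 in the second pair, against 219 and 144 in the first (−2.93), and chr3:133454501-133455200, with 119 and 182 in the second pair, against 14 and 63 in the first (1.94). All 4 H3K27me3 regions lay in the flanks and were small, from −0.69 to 0.68.

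Tet3 (chr6:83362373-83457208, minus strand) had one long H3K9me2 region in the gene body. It spans chr6:83403601-83405300 and held 94 and 49 in the second pair, against 265 and 466 in the first (−2.34). The pairs did not overlap, and a G9a region inside it, with 21 and 115 in the second pair against 47 and 157 in the first (−0.58), pointed the same way with overlapping pairs. Of its 13 G9a regions 10 were higher in the first pair, led by chr6:83399801-83400700 with 6 and 82 in the second pair, against 168 and 171 in the first (−1.92). The pairs did not overlap in 4 of these 10, and library 1 of the second pair was the lowest library in each. Summed over the 10, that library had 122 and library 2 of the second pair 792, against 959 and 1159 in the first pair. The 3 others were higher in the second pair, the direction of 44.5% of all G9a regions. They had log2 differences of 0.58 to 0.83 with overlapping pairs. Its 2 H3K9me2 regions higher in the second pair were shorter, at 0.82 and 1.02. All 6 H3K27me3 regions lay in the upstream flank, which Bola3 shares, and 3 pointed each way. The leading one, chr6:83464701-83465550, held 71 and 55 in the second pair, against 164 and 221 in the first (−1.60).

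**Figure D3:**
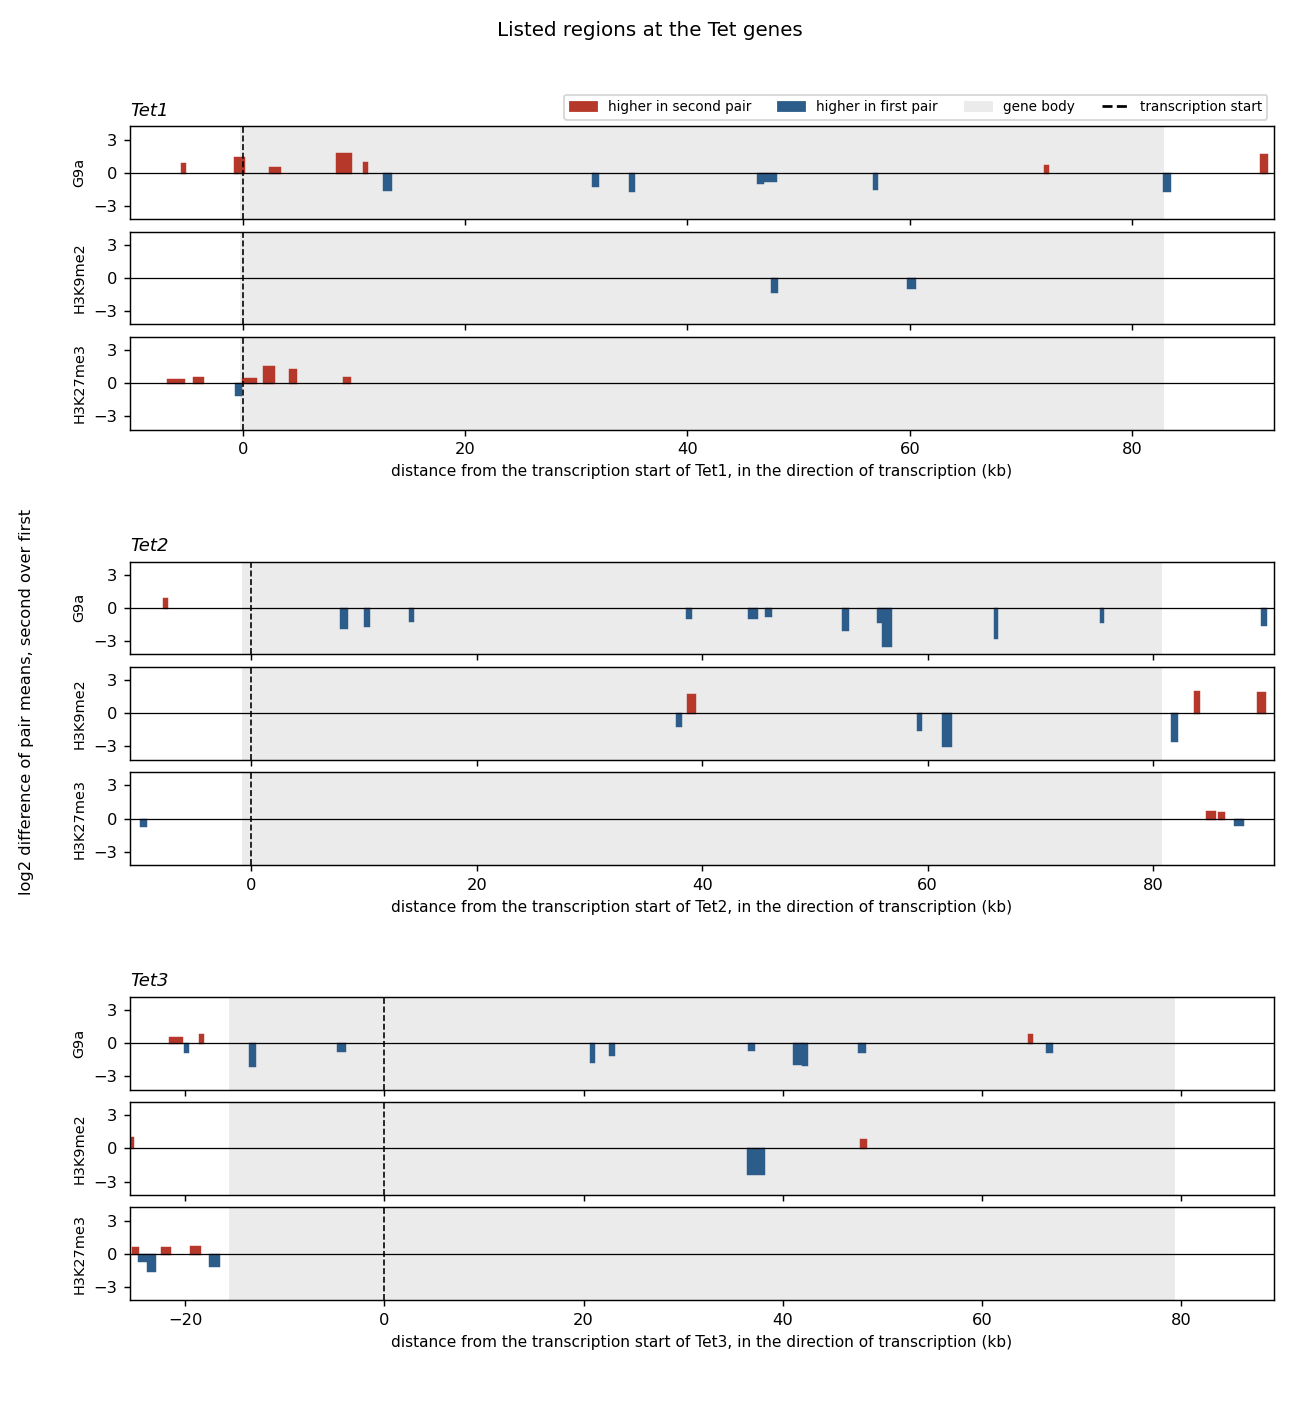
Listed regions at Tet1, Tet2 and Tet3 by distance from the transcription start in kb, with bar height the log2 difference between pairs (second over first), red where the second pair was higher and blue where the first was, grey for the gene body. G9a and H3K27me3 bars gather red around the start of Tet1 (1.41 and 0.48), whereas blue G9a bars run along Tet2 (down to −3.48) and Tet3, whose H3K27me3 bars stay outside the gene.

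Regions over a start lay at 3 of the 8 members and all pointed to the second pair. Among all genes that direction was also the more common over starts for G9a and H3K27me3, though not for H3K9me2. For G9a, 3 of 8 members had a start inside a region higher in the second pair (Dnmt3b, Dnmt3l and Tet1), against 10.9% of the 17492 genes with an annotated start, and 0 of 8 had one inside a region higher in the first pair, against 6.52%. For H3K9me2 the counts were 1 of 8 (Dnmt3b) against 2.21%, and 0 of 8 against 2.45% for the first pair. That 1 is the region for which Dnmt3b was chosen, so it supports nothing. For H3K27me3 the counts were 2 of 8 (Dnmt3l and Tet1) against 22.0%, and 0 of 8 against 5.64% for the first pair. All 3 starts of Dnmt3l lay inside second-pair regions of both G9a and H3K27me3. The starts of Dnmt1, Dnmt3a, Uhrf1, Tet2 and Tet3 lay in no listed region. CG counts of the 2 kinds overlapped: the Dnmt3l promoters held 3 to 6 CG and that of Dnmt3b 30, while starts without a region ranged from 2 CG (the first of Dnmt1) to 57 (Tet2).

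**Figure D4:**
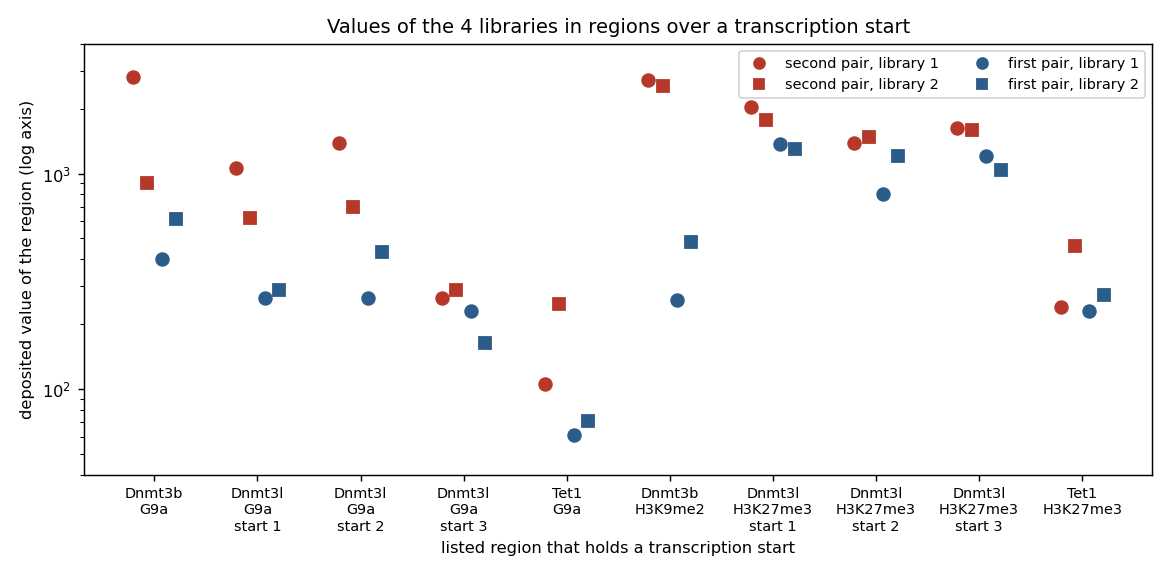
Deposited values of the 4 libraries, on a log axis, in the 10 regions that hold a transcription start, with the second pair in red left of the first pair in blue and circles and squares for libraries 1 and 2. Both red points lie above both blue points in every region except the H3K27me3 region of Tet1 (241 and 462 in the second pair, against 230 and 272 in the first).

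G9a and H3K27me3 regions overlapped 42 times at the members, over 27900 bp. Of these overlaps 32 had the same direction and 10 did not, where 62.3% of all such overlaps in the 2 tables had the same direction. Those counts would change places if the pairs stood in another order in one of the tables. Dnmt3l supplied 21 of the 42, with 17 in the same direction, so this count leans on 1 gene. G9a and H3K9me2 regions, the enzyme and its product, met 7 times over 6250 bp, among 22 H3K9me2 regions at the members. Over the whole tables they met 81258 times, among 245088 H3K9me2 regions. Of the 7 overlaps 4 had the same direction, against 56.6% of all such overlaps. The 3 that pointed apart were at Tet2 (2 overlaps) and Tet3, where G9a was higher in the first pair and H3K9me2 in the second. The widest was that over the Dnmt3b start, with 3200 bp. H3K9me2 and H3K27me3 met 5 times, 4 of them in the same direction, against 54.9% of all such overlaps, and the fifth, at Dnmt1, opposed.

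Taking all 110 G9a regions, 65 had pairs that did not overlap, against 61.3% of all G9a regions. H3K9me2 had 19 of 22 against 67.9%, and H3K27me3 had 43 of 72 against 69.2%. These regions had been selected for a difference between pairs, so the shares describe the tables. Library 1 of the second pair was below the other 3 libraries in 57 of the 65 G9a regions higher in the first pair and listed at 0 in 19 of them. Over all G9a regions its median value was 52, against 90 for library 2 of that pair and 77 and 94 for the first pair. That library was listed at 0 in 19 of all 110 regions, against 9.34% of all G9a regions. The like shares for first-pair regions alone, for the 57 and for the turned regions were not computed over all G9a regions. These counts are therefore not read as particular to the members. Leaving out library 1 of the second pair turned the direction of 10 of the 110, 8 of which had been higher in the first pair. Leaving out library 2 of that pair turned 7, all of which had been higher in the second pair. No such single library turned more than 1 of 22 H3K9me2 or 5 of 72 H3K27me3 regions.

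A second look with limma over all of a table's regions, already selected for a difference between pairs, called no region at a member. At a Benjamini-Hochberg adjusted p of 0.05 it called 0% of all G9a regions and 0 of 110 at members, 4.08e-04% of H3K9me2 regions (1 region) and 0 of 22, and 0% of H3K27me3 regions and 0 of 72. Without adjustment, 10 of 110 G9a regions had limma p-values below that threshold, against 6.70% of the table, 4 of 22 H3K9me2 regions against 11.8%, and 14 of 72 H3K27me3 regions against 18.8%. The smallest adjusted p at a member was 0.149, for the H3K9me2 region over the Dnmt3b start (log2 difference 2.89, standard error 0.34). That difference picked the gene, so its p supports nothing. Next came H3K27me3 in the body of Dnmt3b, at −2.52 with a standard error of 0.67 and a limma adjusted p of 0.196. At the Tet3 H3K9me2 region limma gave −2.35, a standard error of 0.55 and an adjusted p of 0.383. With 2 libraries a pair, an exact permutation test of 1 region cannot reach p = 0.05.

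The genes most like Dnmt3b, by the shares of the window covered in 3 tables and 2 directions (6 shares), were Ppp1r3g, Lyzl1 and Tas2r143, at Euclidean distances of 5.19, 5.34 and 5.60 percentage points. Ppp1r3g had 12.5% of its window in G9a regions higher in the second pair and 15.4% in H3K27me3 regions higher in the first, against 11.2% and 18.9% for Dnmt3b. Its H3K9me2 share in the second-pair direction was 3.64%, below the 6.09% of Dnmt3b. Lyzl1 came to 1.24% and Tas2r143 to 4.55% in that share.

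Another 38 genes of the system were taken in 4 lists. The first list held 10 genes from the families of methyl-CG readers, and whether each binds methyl-CG was not checked. Of these, 3 had an H3K9me2 region higher in the second pair (Mbd1, Mbd5, Zbtb4), 3 one higher in the first (Mbd2, Mbd4, Mbd5) and 5 had neither. The G9a table gave 7 and 9 of the 10 in the second-pair and first-pair directions, and H3K27me3 gave 3 and 4. Mbd5 had regions in both directions for each of the 3 antibodies. Its H3K9me2 region with the smallest deposited p held 107 and 188 in the second pair, against 18 and 36 in the first (2.41), and its H3K27me3 region with the smallest p, elsewhere in the gene, 0 and 12 in the second pair, against 157 and 111 in the first (−4.27). The shares of all genes given above are the background of these counts.

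Among 8 partners in maintenance and targeting, 7 had an H3K27me3 region higher in the second pair and all 8 one higher in the first. H3K9me2 gave 4 and 6, and G9a gave 5 and 8. Hells, a chromatin remodeller needed for DNA methylation, held 23 and 10 in the second pair, against 147 and 112 in the first, in an H3K9me2 region inside the gene (−2.90). Near Dppa3, H3K27me3 had values of 2030 and 2038 in the second pair, against 1078 and 963 in the first (0.99). Cdca7, a partner of Hells, had an H3K27me3 region in its flank with 96 and 102 in the second pair, against 742 and 302 in the first (−2.39). Each of these pairs was without overlap.

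Of 12 demethylation partners, 9 had a G9a region higher in the second pair and 11 one higher in the first, 4 and 6 had such H3K9me2 regions, and 7 and 9 such H3K27me3 regions. Smug1, a uracil glycosylase, lay under a broad H3K27me3 region with 7124 and 6422 in the second pair, against 4160 and 4486 in the first (0.65). Gadd45b, a stress-induced gene linked to demethylation, had a G9a region in its flank with 437 and 198 in the second pair, against 42 and 104 in the first (2.11). Of 8 enzymes of methyl donor and oxoglutarate supply, 7 and 8 had G9a regions in the second-pair and first-pair directions, 2 and 3 H3K9me2 regions, and 2 and 4 H3K27me3 regions. Next to Mat2b, a subunit of the enzyme that makes S-adenosylmethionine, G9a held 1 and 126 in the second pair, against 271 and 303 in the first (−2.16), with library 1 of the second pair near 0. No listed region of these 38 genes that is named here passed limma at an adjusted p of 0.05.

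The 10 kb edge decided a few memberships. The outermost G9a region inside lay 9958 bp from Dnmt3a, with 0 and 58 in the second pair, against 92 and 38 in the first, and the nearest one outside lay 10187 bp from Dnmt3l, with 86 and 87 in the second pair, against 7 and 65 in the first. For H3K9me2 these were 9743 bp from Tet3, with 178 and 72 in the second pair, against 68 and 54 in the first, and 17815 bp from Tet2, with 14 and 30 in the second pair, against 49 and 69 in the first. For H3K27me3 both lay at Dnmt3b, 9921 bp away with 192 and 57 in the second pair, against 308 and 158 in the first, and 10761 bp away with 132 and 181 in the second pair, against 237 and 205 in the first.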

How the data were processed

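Chromatin immunoprecipitation libraries of G9a, H3K9me2 and H3K27me3 were processed, per the submitters' processing notes, with SAMtools 1.1 and BWA 0.7.10-r789 on mm10 (GRCm38). Not given in the sources used here are the region caller, its scaling, its input correction and the depth of each library. Each antibody has 1 headerless table deposited by the authors, holding region coordinates, 4 whole-number values and a −log10 p. Whether the values were scaled is not stated, so no count model was used and no counting interval is given. Input libraries were not analysed here.

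Genes and promoters came from RefSeq tables for GRCm38.p6, which give no exons. Regions were matched to gene bodies plus 10000 bp either side in Python 3.11.15 with pandas 2.3.3. A region was called by its deposited p. As a second look, limma 3.58.1 in R 4.3.3 was fitted to log2(value + 1) of all regions of a table. The fit used a trended prior and Benjamini-Hochberg adjustment. It was also run on simulated regions with 1 common spread and no selection by p. The listed regions had been selected for a difference, so that run cannot show how the fit performs on them. Named are, per member, table and direction, mainly the region with the smallest deposited p, the 3 genes most like Dnmt3b, and examples from up to 2 genes per list and table. Further regions of the members, over a start or next to those, were named after their values were seen. Members, lists and tests were chosen with earlier results of these data known. No statement of sham or TAC per pair was drawn.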

Additional observations from a re-analysis of the deposited data

How the results depend on the processing

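Counts of regions at the 8 genes moved with the window and with filters, in the authors' deposited tables, while the direction of the named regions mostly held. G9a regions higher in the second pair numbered 45, and 24 in the gene body only, 27 with 2500 bp either side, 77 with 25000 bp and 28 where only non-overlapping pairs counted. Those higher in the first pair numbered 65, then 37 with non-overlapping pairs and 20 where the mean value per kb had to reach the table's median. H3K9me2 gave 8 in the second-pair direction, 4 in the gene body and 5 with 2500 bp. In the first-pair direction it gave 14, 9 in the gene body and 3 with the value filter, which left 2 members of 7. H3K27me3 gave 41 in the second-pair direction, 20 in the gene body, 21 with 2500 bp, 67 with 25000 bp, 25 with non-overlapping pairs (5 members of 8) and 25 at a deposited p of 0.0001 or less. In the first-pair direction it gave 31, 14 in the gene body (4 members of 8), 18 with 2500 bp, 58 with 25000 bp, 18 with non-overlapping pairs, 20 at the stricter p and 11 with the value filter (4 members).

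In limma, the H3K9me2 table had 1 region with an adjusted p under 0.05, and 27 with a pseudocount of 10, 2 after scaling by library sum, 2 after scaling by library median, 0 without a trended prior, 11 with the value filter, and 0 to 0 when 1 library was left out. Among the 22 regions at members that count was 0, and 1 with the pseudocount of 10. It was also 1 with the value filter, which kept 9 of these 22 regions and 122997 of all 245088. Each time it was the region over the Dnmt3b start, at 2.79 (limma adjusted p 0.00494) and 2.82 (limma adjusted p 0.0123). That region was the one that picked the gene, so these p-values support nothing. Its log2 difference of pair means ranged from 2.45 to 3.34 with 1 library left out. Its limma adjusted p ranged from 0.00494 to 0.389 over the settings that kept all libraries. H3K27me3 had 0 calls, and 48 with the pseudocount of 10 and 885 with the value filter. After median scaling it had 18197 calls among 552542 regions, 17737 of them in the second-pair direction. At members that was 1 of 72 regions, at Dnmt3l. G9a had 0 calls under every alternative.

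Median scaling moved the median limma log2 difference of all regions to −0.42 (G9a, −0.73 unscaled), −0.48 (H3K9me2, −0.65 unscaled) and −0.26 (H3K27me3, −0.55 unscaled). Of 43 named regions 5 turned in an alternative, by the log2 difference of pair means, which the next values also give. A weak G9a region at Dnmt3l went to 0.01 under median scaling. With 1 library left out, the Tet2 G9a region higher in the second pair ranged from −0.08 to 5.73, the Tet2 H3K27me3 region from −0.23 to 1.63, the Tet3 G9a region from −0.54 to 1.20 and the Uhrf1 H3K27me3 region from −0.05 to 1.84. The causes of these changes were not tested. No paired analysis was possible because the value columns carry no replicate numbers. A lone library left in a pair is assumed to vary like the other pair.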
